A study of Mus musculus with 24 samples.

Results

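The genes of the cyclic AMP arm were examined in the neonatal mouse hippocampus: 7 membrane adenylyl cyclases (Adcy1, Adcy2, Adcy3, Adcy5, Adcy6, Adcy8 and Adcy9), the catalytic subunit of protein kinase A (Prkaca) and the transcription factor Creb1. They were taken by gene name from the annotation of the Agilent arrays, where 12 non-control probes carry these names, out of 55681 probes with 36163 names. Adcy5 has 3 probes, Creb1 has 2 and each other gene has 1. The samples were hippocampi of C57BL/6 mice labelled male and killed on postnatal day (P) 9, with 5 animals and 5 one-colour arrays in each of 3 groups. Untreated controls (Con) stayed in the home cage with little handling. From P5 the MS2 and MS5 groups received injections of morphine at 2 mg/kg or 5 mg/kg, 2 times a day. The same pups were kept apart from the dam in a warmer at 32°C during the day and breathed 100% nitrogen for 1 min and then oxygen for 5 min at each injection. A contrast with Con therefore spans morphine, separation and apnea together, and no group had the stress without morphine.

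Adenylyl cyclases turn ATP into cyclic AMP, which releases the catalytic subunits of protein kinase A, and the kinase phosphorylates Creb1 and so switches on genes with a cyclic AMP response element. Opioid receptors couple to inhibitory G proteins that lower cyclase activity at once, while prolonged exposure is known to be followed by a compensatory rise of cyclase activity, which is best described for Adcy1, Adcy5, Adcy6 and Adcy8 in cultured cells and for locus coeruleus neurons. In the hippocampus the calcium-stimulated forms Adcy1 and Adcy8 serve long-lasting synaptic plasticity. The arrays measure mRNA, so enzyme activity and phosphorylation of Creb1 lie outside these data.

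All 12 probes were well above background on all 15 arrays. Levels are log2 values of the authors' table, normalized between arrays, and are compared only within a probe, because brightness differs between probes for reasons other than mRNA. Several arrays stood apart. MS2 replicate 4 had a mean of 10.50 over 9 marker genes of hippocampal principal neurons, against 12.03 to 12.43 on the other 14 arrays, and it carried the hypothalamic peptide genes Hcrt and Pmch at 12.31 and 13.33, against at most 8.45 and 7.55 elsewhere. All 9 hippocampal markers were still above background on it. These peptide genes come from a list of 10 hypothalamic and thalamic genes. In the same list Prkcd was lowest on that array (10.32) and Pomc lay within the range of the others (9.98). The list mean was 10.75 on MS2 replicate 4 and 9.78, 9.54 and 9.65 on MS5 replicates 8, 12 and 14. It was 8.28 to 8.93 on the remaining arrays. Avp read 10.58 on MS2 replicate 4 and 11.99, 12.47 and 10.79 on those MS5 arrays. MS2 replicate 5 was the dimmest array, with a median spot signal of 58.2 against 121 to 154. MS5 replicate 9 carried Xist at 11.34, against at most 6.08 on the other arrays, and low Ddx3y (6.24) and Eif2s3y (6.77), which goes against its label as male. MS5 replicates 14 and 9 were low in choroid plexus genes, with means of 8.82 and 9.83 over 11 markers, against 11.35 to 12.66 on the other 13 arrays. As log2 of the summed level that list spanned 17.85 to 18.44 in Con, 17.93 to 18.30 in MS2 and 13.52 to 18.14 in MS5, with all 11 above background on all arrays, and its part in the member values was not tested. For several results that turned on an array that stood apart, the value without that array is given beside it. Such values are not given for every gene named.

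No member differed between the groups beyond the spread of the arrays. At the study's threshold, a change of more than 1.5-fold with an unadjusted limma p under 0.05, 0 of the 12 probes passed for MS2 versus Con, where 0.0233% of all probes passed. Likewise 0 of 12 passed for MS5 versus Con, against 0.228% of all probes. The contrast of MS5 with MS2 gave 0 of 12, against 0.129%. Without the limit on size, 0 of 12 reached an unadjusted p under 0.05 in any contrast, against 4.17%, 3.9% and 3.97% of all probes. With slide as a block 1 of 12 did so, Prkaca for MS5 versus MS2. After Benjamini-Hochberg adjustment over all probes limma called 0 of 12 members, and 0% of all probes, in each contrast. The smallest adjusted p of a member was 0.97 for MS2 versus Con and 1.00 for the other contrasts. In no contrast did the arrays of a member fall into groups that do not overlap, which happened at 0.702%, 0.828% and 0.621% of all probes. With 12 probes and backgrounds this low, counts of 0 are near what the whole array shows and say nothing particular about these genes.

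Taking the probe with the highest mean level for each gene, 6 of 9 genes were higher in MS2 than in Con, against 47.2% of all genes. For MS5 versus Con 7 of 9 were higher, against 49.5% of all genes, and for MS5 versus MS2 6 of 9, against 51.9%. The median difference over the 9 genes was 0.03 (log2) for MS2 versus Con and 0.04 for MS5 versus Con, against medians of -0.0049 and -9e-04 over all genes. A linear trend over the doses of morphine, with Con at 0, gave 0 of 12 member probes at an unadjusted p under 0.05, against 3.97% of all probes, and 0% of all probes after adjustment. Con also lacked the separation and apnea, so a slope on dose spans morphine and stress together. The member slopes ran from -0.0098 for Adcy9 to 0.0659 for an Adcy5 probe (log2 per mg/kg), and the smallest p was 0.129, for Adcy1 (slope 0.0366, SE 0.0229). Without MS2 replicate 4 the Adcy1 slope was 0.0393 and without MS5 replicate 14 it was 0.0513, each with an unadjusted p under 0.05 and an adjusted p of 0.75 and 1.00 by limma.

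**Figure D1:**
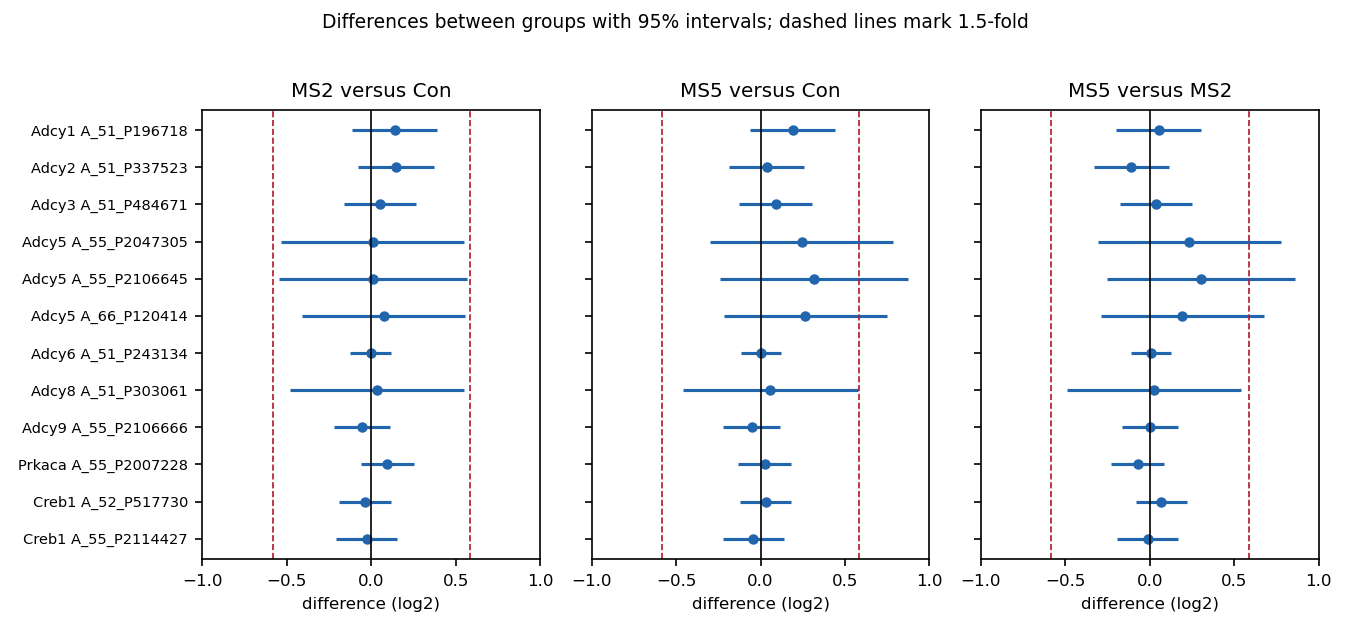
Difference between groups (x axis, log2) of each member probe (y axis), with points for the limma estimate, horizontal lines for its 95% interval and dashed lines at 1.5-fold either way. All intervals include 0, and those that reach past 1.5-fold belong to the 3 Adcy5 probes, in MS5 versus Con and MS5 versus MS2.

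The 95% limma intervals show what sizes these arrays leave possible. For MS2 versus Con the interval lay inside 1.5-fold either way for 12 of 12 member probes, and for each contrast with MS5 for 9 of 12. Of the 36298 probes well above background on all arrays, 93.3%, 93.5% and 94.7% had such an interval in the 3 contrasts. The probes outside were those of Adcy5 in both cases. The narrowest interval was that of Adcy6, from -0.12 to 0.12 for MS5 versus Con.

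Adcy1 encodes a calcium- and calmodulin-stimulated cyclase of neurons, abundant in dentate granule cells. Its probe lies at chr11:7077699-7077755 (mm9, plus strand). In Con its log2 level was 14.33 (replicate 15), 13.97 (16), 14.15 (17), 14.28 (18) and 14.39 (19). In MS2 it was 14.31 (replicate 1), 14.12 (3), 14.78 (4), 14.26 (5) and 14.34 (7). In MS5 it was 14.56 (replicate 8), 14.51 (9), 14.34 (12), 14.51 (13) and 14.14 (14). The highest array was MS2 replicate 4, 3 of 5 MS5 arrays lay above the highest Con array, and MS5 replicates 12 and 14 lay within the Con range. The means were 14.22 ± 0.17, 14.36 ± 0.25 and 14.41 ± 0.17 (SD, n = 5). The MS5 difference from Con was 0.19 (log2, SE 0.12, interval -0.06 to 0.44, limma adjusted p = 1.00, two-sided exact permutation p = 0.127). It was 0.28 within slide 1 and 0.16 within slide 2. The MS2 difference of 0.14 became 0.03 without MS2 replicate 4, so that 1 array carried most of it.

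Adcy8 encodes the other cyclase that calcium and calmodulin stimulate. Its probe lies at chr15:64530939-64530998 (mm9, minus strand). Con arrays gave 9.30 (replicate 15), 8.92 (16), 9.42 (17), 9.39 (18) and 9.25 (19). MS2 arrays gave 9.14 (replicate 1), 8.77 (3), 10.24 (4), 8.96 (5) and 9.35 (7), and MS5 arrays gave 9.28 (replicate 8), 9.51 (9), 8.74 (12), 9.83 (13) and 9.22 (14). The groups overlapped throughout, and MS2 replicate 4 was the highest array. The mean was 9.26 ± 0.20 in Con, 9.29 ± 0.57 in MS2 and 9.32 ± 0.40 in MS5 (SD, n = 5). The difference from Con was 0.03 (SE 0.24, exact permutation p = 0.952) for MS2 and 0.06 (SE 0.24, exact permutation p = 0.81) for MS5. Without MS2 replicate 4 the MS2 difference was -0.20. With that array kept, it was -0.29 within slide 1 and 0.51 within slide 2, which holds the array. Adcy8 also varied more among arrays of a group than 96.6% of the probes well above background on all arrays.

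Adcy3, a cyclase of primary cilia and of olfactory neurons, had levels of 9.11 to 9.46 in Con, 9.14 to 9.55 in MS2 and 9.09 to 9.54 in MS5. Its probe lies at chr12:4211535-4211594 (mm9, plus strand). The difference of MS5 from Con was 0.09 (SE 0.10) and that of MS2 was 0.05 (SE 0.10). For MS5 it was 0.25 within slide 1 and -0.04 within slide 2, and it was 0.04 without Con replicate 18 and 0.16 without MS5 replicate 12. Of the 5 MS5 arrays 3 lay above all Con arrays, and MS5 replicate 12 lay below them.

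Adcy2 belongs to the forms that G protein beta-gamma subunits stimulate in the presence of active Gs. Its probe lies at chr13:68759669-68759728 (mm9, minus strand). Its level was 11.10 to 11.56 in Con, 11.24 to 11.78 in MS2 and 11.12 to 11.45 in MS5. The MS2 difference from Con was 0.14 (SE 0.10, exact permutation p = 0.262), the largest of any member in that contrast, and it was 0.06 without MS2 replicate 4. With that array kept, it was -0.01 within slide 1 and 0.38 within slide 2, which holds the array. The MS5 difference from Con was 0.04 (SE 0.10).

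Adcy5 and Adcy6 form the branch that calcium and inhibitory G proteins restrain, and Adcy5 is the main cyclase of striatal medium spiny neurons. The 3 Adcy5 probes do not overlap: 297 bases of the genome lie between the first and the second and 93 between the second and the third. Their first 30 bases are shown because the pattern below is read from 3 separate sequences of the same gene, written 5′ to 3′ as the array annotation gives them.
A_66_P120414, chr16:35304041-35304100 (mm9, plus strand): atgtttccccttggcagaagactctgctag
A_55_P2047305, chr16:35304398-35304457 (mm9, plus strand): gcaagaggacaccaggcaaggagcagtggc
A_55_P2106645, chr16:35304551-35304610 (mm9, plus strand): ggaggtgggaaccccaacttgtctttttgt

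On the probe with the highest mean, A_55_P2047305, the Con arrays gave 12.19 (replicate 15), 12.23 (16), 12.24 (17), 12.42 (18) and 13.16 (19). The MS2 arrays gave 12.17 (replicate 1), 12.25 (3), 12.39 (4), 13.30 (5) and 12.17 (7). The MS5 arrays gave 13.37 (replicate 8), 12.37 (9), 12.56 (12), 12.32 (13) and 12.84 (14). Thus 5 arrays were high, 1 in Con, 1 in MS2 and 3 in MS5, and the other 10 lay between 12.17 and 12.42. The same 5 arrays were the highest 5 on the other probes too. On A_66_P120414 they read 11.95 to 12.70, against 11.50 to 11.84 on the other 10 arrays, and on A_55_P2106645 they read 10.40 to 11.29, against 9.91 to 10.12.

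The mean Adcy5 level of this probe was 12.45 ± 0.41 in Con, 12.46 ± 0.48 in MS2 and 12.69 ± 0.43 in MS5 (SD, n = 5). The MS5 difference from Con was 0.24 (log2, SE 0.25, interval -0.30 to 0.79, exact permutation p = 0.365), and the other probes gave 0.31 (SE 0.26) and 0.26 (SE 0.23). The MS2 difference from Con was 0.01 (SE 0.25), and -0.20 without MS2 replicate 5. The 3 probes pointed the same way in MS5, with errors about as large as the differences. They read the same gene in the same RNA, so this agreement is not separate support. Over the 10 arrays not high in Adcy5, the pairs of probes had r = 0.34, 0.65 and 0.50. Permutation p was 0.387, 0.047 and 0.124, and adjusted p over 5 relations 0.393, 0.118 and 0.207. Their rho was -0.04, 0.55 and 0.44, and r without the 2 farthest arrays was -0.09, 0.68 and -0.12. The MS5 difference was 0.56 within slide 1 (2 MS5 and 3 Con arrays) and -0.11 within slide 2 (3 MS5 and 2 Con arrays), and 0.19 with slide as a block. On A_55_P2106645 the slide 1 difference was 0.70, past the study's threshold, with an adjusted p of 0.592 by limma, and on slide 2 it was -0.11. On A_55_P2047305 the difference was 0.07 without MS5 replicate 8 and 0.42 without Con replicate 19.

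**Figure D2:**
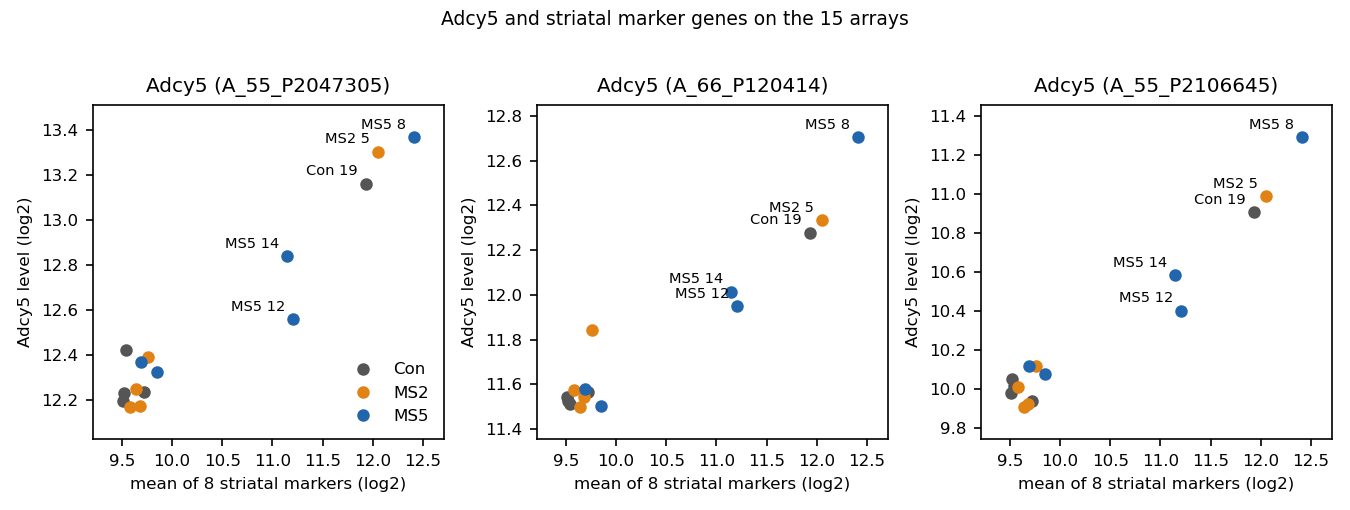
Level of each Adcy5 probe (y axis, log2) against the mean level of 8 striatal marker genes (x axis, log2) on the 15 arrays, with points coloured by group and the 5 highest arrays named. Those 5 arrays sit at marker means of 11.15 to 12.41 and hold the highest Adcy5 levels on all 3 probes, while the other 10 sit at 9.52 to 9.85.

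The arrays high in Adcy5 were also those high in markers of striatal neurons. Over 8 such genes, among them Drd1a, Drd2, Adora2a, Rgs9 and Ppp1r1b and all above background on all 15 arrays, the mean level was 11.93 on Con replicate 19, 12.05 on MS2 replicate 5, 12.41 on MS5 replicate 8, 11.21 on MS5 replicate 12 and 11.15 on MS5 replicate 14. On the other 10 arrays it lay between 9.52 and 9.85. The dopamine receptor gene Drd1a read 9.97 to 11.24 on the 5 arrays and 7.90 to 8.60 on the other 10, and the adenosine receptor gene Adora2a read 9.45 to 10.75 and 7.35 to 8.11. Drd2 was the marker that overlapped, with 7.36 to 8.42 and 6.74 to 7.48. As log2 of the summed level, the list spanned 13.69 to 16.35 in Con, 13.67 to 16.39 in MS2 and 13.64 to 16.82 in MS5. Because the arrays formed 2 clusters in this list, no correlation over all 15 is given. Within the 10 lower arrays Adcy5 and the list had r = 0.30 (permutation p = 0.393) and rho = 0.38 (permutation p = 0.278), with adjusted p of 0.393 and 0.348 over 5 such relations, and r = 0.12 without the 2 arrays farthest from the median.

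Without the 5 arrays the Adcy5 difference was 0.08 for MS5 versus Con and -0.02 for MS2 versus Con, with 2, 4 and 4 arrays left in MS5, MS2 and Con. These 5 arrays are the highest 5 for Adcy5 on each probe and 3 of them are MS5, so a smaller difference follows from leaving them out. The part of striatal RNA in the Adcy5 values was not tested. In RNA from whole tissue, more cells of a type and more RNA per cell cannot be told apart.

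Adcy6 was the steadiest member. Its levels were 10.64 (replicate 19) to 11.00 (replicate 18) in Con, 10.79 to 10.93 in MS2 and 10.79 to 10.93 in MS5, and its spread within groups was larger than that of only 15.0% of the probes above background. The difference from Con was 0.0022 (log2, SE 0.06) for MS5 and -0.0047 (SE 0.06) for MS2. Con replicate 19, one of the arrays high in Adcy5, was the lowest for Adcy6. The annotation places 15 bases of its probe on the genome, at chr15:98420404-98420418 (mm9, minus strand).

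Adcy9, a widely expressed cyclase with little response to forskolin, had levels of 13.22 to 13.42 in Con, 13.05 to 13.44 in MS2 and 13.18 to 13.49 in MS5. Its probe lies at chr16:4287678-4287737 (mm9, minus strand). The difference from Con was -0.05 (SE 0.08) for both treated groups. The lowest array was MS2 replicate 4, and without it the MS2 difference was 0.0051. The MS5 difference was -0.18 within slide 1 and 0.08 within slide 2, with opposite signs.

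Prkaca encodes the catalytic alpha subunit of protein kinase A. Its probe lies at chr8:86519301-86519360 (mm9, plus strand). In Con it read 9.25 (replicate 15), 9.39 (16), 9.22 (17), 9.19 (18) and 9.30 (19). In MS2 it read 9.18 (replicate 1), 9.30 (3), 9.60 (4), 9.50 (5) and 9.25 (7), and in MS5 9.24 (replicate 8), 9.36 (9), 9.32 (12), 9.19 (13) and 9.36 (14). All 5 MS5 arrays lay within the Con range, and the highest arrays were MS2 replicates 4 and 5, both among those that stood apart. The mean was 9.27 ± 0.08 in Con, 9.37 ± 0.18 in MS2 and 9.29 ± 0.07 in MS5 (SD, n = 5). The difference from Con was 0.10 (SE 0.07, exact permutation p = 0.317) for MS2, or 0.04 without MS2 replicate 4, and 0.02 (SE 0.07, exact permutation p = 0.651) for MS5. The difference between MS5 and MS2 was -0.07 (SE 0.07), or -0.11 with slide as a block, where its unadjusted limma p was 0.0317 and its adjusted p 0.972. It was -0.02 within slide 1, -0.21 within slide 2, which holds MS2 replicates 4 and 5, and 0.03 without those arrays and MS5 replicate 9.

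Creb1, the transcription factor that protein kinase A phosphorylates, was read by a probe at chr1:64644633-64644692 and another at chr1:64651061-64651120 (mm9, plus strand), 6368 bases apart. They are shown by their first 30 bases, since they report different stretches of the gene.
A_52_P517730: ttcattcagttctgtgtgttcagcagtttg
A_55_P2114427: ggcaaccagagtctgccttctgtaaattga

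On A_55_P2114427, the brighter of the pair, Con arrays read 8.50 (replicate 15), 8.48 (16), 8.71 (17), 8.74 (18) and 8.69 (19). MS2 arrays read 8.54 (replicate 1), 8.44 (3), 8.62 (4), 8.78 (5) and 8.60 (7), and MS5 arrays read 8.52 (replicate 8), 8.71 (9), 8.46 (12), 8.80 (13) and 8.42 (14). The 3 groups covered nearly the same range. The differences from Con were -0.03 (SE 0.08) for MS2 and -0.04 (SE 0.08) for MS5, and A_52_P517730 gave -0.04 (SE 0.07) and 0.03 (SE 0.07). For MS5 the probes thus differed in sign, each within its error. Over the 15 arrays they had r = 0.55 (permutation p = 0.035) and rho = 0.59 (permutation p = 0.023), or r = 0.61 without the 2 farthest arrays, and the adjusted p over the 5 relations were 0.118 and 0.115.

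**Figure D3:**
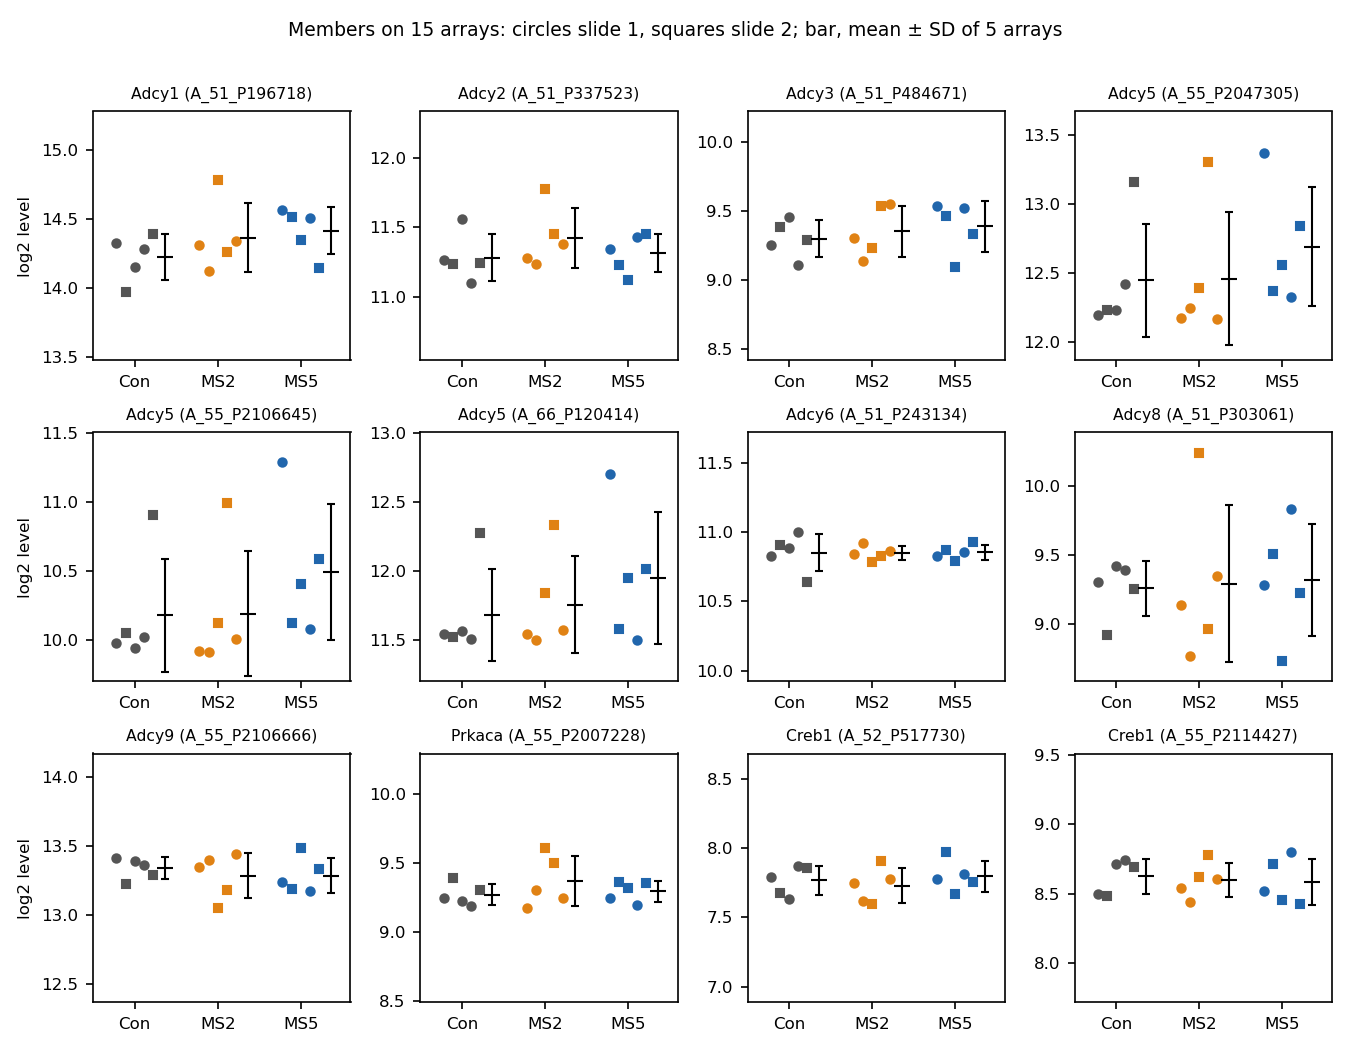
Log2 level (y axis, the same span of 1.8 in each panel) of the 12 member probes on the arrays of Con, MS2 and MS5 (x axis), with circles for slide 1, squares for slide 2 and black bars for the mean ± SD of 5 arrays. The groups overlap in each panel, and the single high points belong mainly to Adcy5, on 5 arrays, and to Adcy8, on MS2 replicate 4.

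The members differed in how far they spread among animals of the same group. The median within-group SD of the 36298 probes above background on all arrays was 0.13 (log2). The 3 Adcy5 probes had 0.44, 0.45 and 0.39, larger than 97.1%, 97.3% and 96.0% of those probes, and Adcy8 had 0.42. Adcy1 (0.20), Adcy2 (0.18) and Adcy3 (0.17) lay above the median, and Adcy9 (0.13), Prkaca (0.12) and Adcy6 (0.09) lay below it. The Creb1 probes had 0.12 and 0.14.

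**Figure D4:**
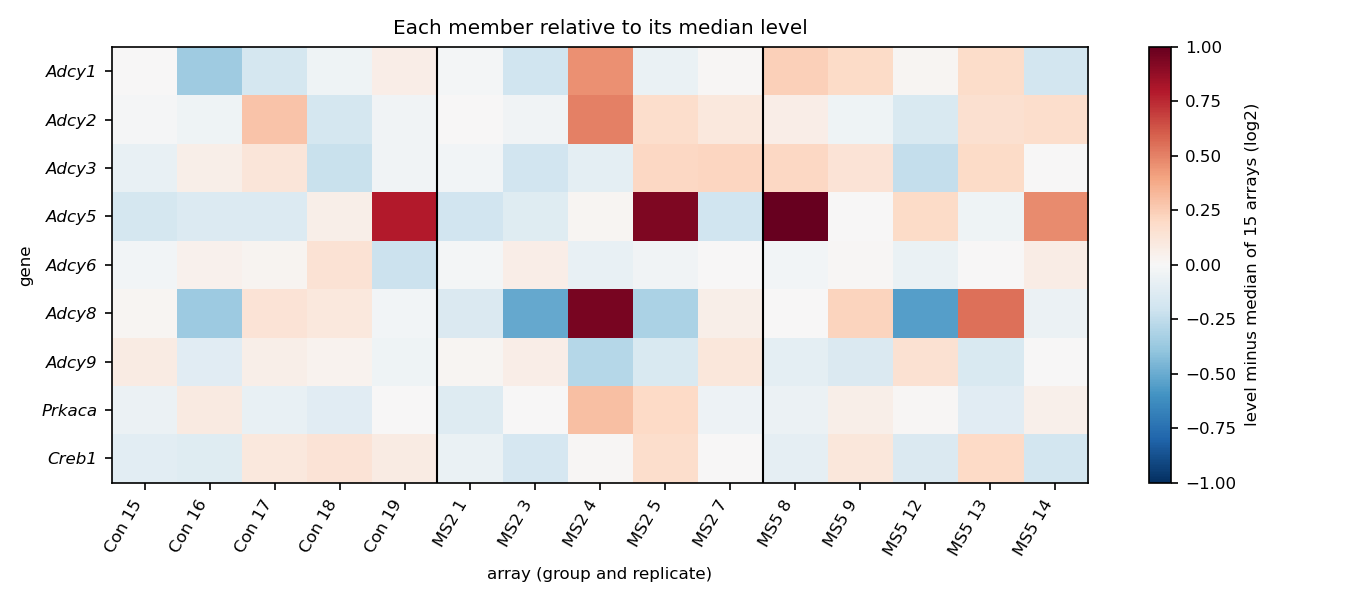
Level of each member (rows, probe with the highest mean) minus its median over the 15 arrays (colour, log2) on each array (columns, by group and replicate). Adcy5 stands out on Con 19, MS2 5, MS5 8 and MS5 14, and MS2 4 holds the highest Adcy1, Adcy2, Adcy8 and Prkaca and the lowest Adcy9.

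MS2 replicate 4, the array low in hippocampal neuron markers, was the highest of the 15 for 4 members: Adcy1 at 14.78 against at most 14.56 elsewhere, Adcy2 at 11.78 against 11.56, Adcy8 at 10.24 against 9.83 and Prkaca at 9.60 against 9.50. It was the lowest for Adcy9, at 13.05 against at least 13.18. Adcy3, Adcy5, Adcy6 and Creb1 lay within the range of the other arrays there. The part of neighbouring brain tissue in these values was not tested.

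Among 25729 other genes above background on all arrays, the genes most like each member were ranked by Pearson correlation over the 15 arrays, as a description. Adcy5 was most like Crabp1 (r = 0.987) and 4833415N18Rik (0.985), and within the 10 arrays low in striatal markers these values were 0.563 and 0.718. Adcy8 was most like Edil3 (r = 0.980, and 0.980 without MS2 replicate 4) and Fam169a (0.95, and 0.907 without it). Adcy1 was most like Kremen2 (0.917) and the metabotropic glutamate receptor gene Grm4 (0.903), Adcy2 like Chmp4b (0.906) and the transcript ENSMUST00000105041 (0.888), and Prkaca like the BMP antagonist gene Nog (0.928) and H2-Q8 (0.910). Without MS2 replicate 4 these 6 correlations lay between 0.783 and 0.863. Adcy9 was most like the plexin gene Plxna4 (0.919) and Vipar (0.908), Adcy3 like AK145655 (0.886) and the oxygen sensor gene Egln1 (0.877), Adcy6 like Sfta2 (0.885) and an intergenic transcript probe (0.847), and Creb1 like Gopc (0.887) and H2-Ke2 (0.875).

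The other genes of the pathway were taken from 7 lists with 59 genes, all of which the arrays measured; Hcn4 was above background on no array. In each contrast 0 of the 59 passed the study's threshold, against 0.0304% of all genes for MS2 versus Con, 0.279% for MS5 versus Con and 0.163% for MS5 versus MS2. In the same order, 3, 2 and 1 of the 59 had an unadjusted p under 0.05, against 3.95%, 4.23% and 3.89% of all genes, and 0 had an adjusted p under 0.05. Their median difference was -0.02 (log2) for MS2 versus Con and 0.02 for MS5 versus Con. Groups did not overlap at 0, 1 and 0 of 59 genes, against 0.619%, 0.832% and 0.501% of all genes. These shares are near those of the whole array.

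**Figure D5:**
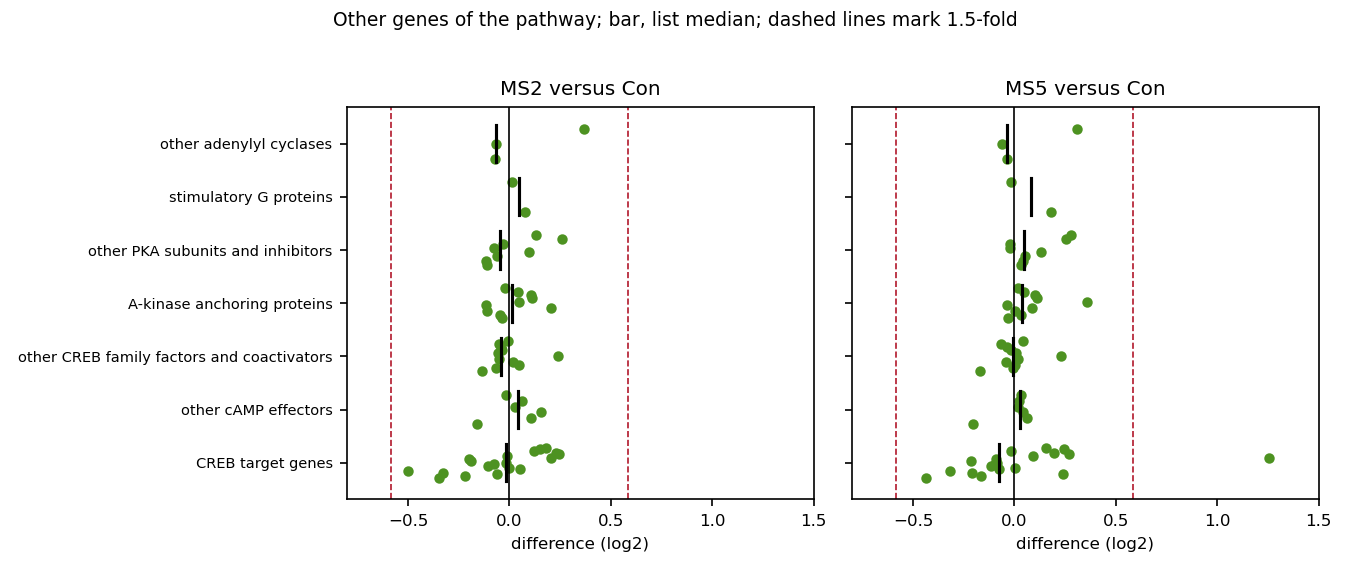
Difference from Con (x axis, log2) of each gene (points) in 7 lists of the pathway (y axis) for MS2 and MS5, with black bars for list medians and dashed lines at 1.5-fold. The medians lie close to 0, and 1 point lies past 1.5-fold, Penk in MS5 at 1.26.

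Of the 3 remaining adenylyl cyclases in the lists, Adcy7 had the highest difference of MS5 from Con, 0.31 (SE 0.34, exact permutation p = 0.0952), and Adcy4 the lowest, -0.06 (SE 0.08). The SE of Adcy7 takes in MS2 replicate 4, which read 11.65 against 9.42 to 9.65 on the other MS2 arrays. Without it the SE was 0.12 at the same difference, with an unadjusted limma p of 0.0251 and an adjusted p of 0.747. The stimulatory G protein subunit genes Gnal and Gnas gave 0.18 (SE 0.23) and -0.02 (SE 0.13). Gnal read 14.92 to 15.55 on the 5 arrays high in striatal markers and 14.50 to 14.91 on the other 10. Gnas overlapped there, with 16.18 to 16.90 and 16.67 to 16.98. The part of striatal RNA in these values was not tested. Among 8 other subunits and inhibitors of protein kinase A, Prkar2b, a regulatory subunit, was highest at 0.28 (SE 0.17) and the regulatory subunits Prkar1a (SE 0.07) and Prkar1b (SE 0.06) were tied as lowest at -0.02. With all arrays, 0 of the 13 genes in these lists reached an unadjusted p under 0.05 in any contrast.

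A-kinase anchoring proteins hold the kinase near its substrates. Of 10 such genes Akap5, the anchor of the postsynaptic density, had the highest difference of MS5 from Con at 0.36 (SE 0.17, exact permutation p = 0.127) and Akap13 the lowest at -0.04 (SE 0.12). Akap5 read 13.23 to 13.53 on the 5 arrays high in striatal markers and 12.45 to 13.09 on the other 10. Akap11 differed by -0.11 between MS2 and Con (SE 0.04, exact permutation p = 0.0317, limma adjusted p = 0.97). Of its 5 MS2 arrays 4, at 13.34 to 13.47, lay below every Con and MS5 array. The lowest was MS2 replicate 4, an array that stood apart. Without that array the difference between MS2 and Con was -0.08 (SE 0.04), which limma no longer called even before adjustment.

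Among 11 CREB relatives and coactivators, the acetyltransferase gene Crebbp was highest in MS5 at 0.23 over Con (SE 0.11, exact permutation p = 0.135) and was 0.24 over Con in MS2 (SE 0.11). Atf1, a close relative of Creb1, was lowest at -0.17 (SE 0.06, exact permutation p = 0.0397). Each had an unadjusted limma p under 0.05, and neither held after adjustment (adjusted p = 1.00 in MS5). Of 6 other effectors of cyclic AMP, the channel gene Hcn2 had the highest difference of MS5 from Con, 0.06 (SE 0.08).

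The list of 19 genes known as CREB targets held the largest values. Of these 8 were higher and 11 lower in MS5 than in Con, with a median of -0.07. Penk, the enkephalin precursor gene, was highest at 1.26 (SE 0.89, exact permutation p = 0.31), and the plasticity gene Arc was lowest at -0.43 (SE 0.24, exact permutation p = 0.119). Penk read 14.85 on Con replicate 19, 15.15 on MS2 replicate 5, and 15.58, 14.40 and 14.54 on MS5 replicates 8, 12 and 14, the 5 arrays that were high in Adcy5 and in striatal markers. On the other 10 arrays it read 11.51 to 12.68. Without Con replicate 19 its MS5 difference was 1.88, past the study's threshold, with an adjusted p of 1.00 by limma. The metabolic coactivator gene Ppargc1a read 12.90 to 13.05 in MS5 and 12.46 to 12.88 in Con, so that the groups did not overlap (difference 0.27, SE 0.14, exact permutation p = 0.00794, the smallest that 5 against 5 arrays can give, limma adjusted p = 1.00). The phosphatase gene Dusp1 differed by -0.33 between MS2 and Con (SE 0.10, exact permutation p = 0.0238, limma adjusted p = 0.97).

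The cyclic AMP response element was searched in promoters of RefSeq (GRCm38.p6), from 250 bases before to 50 after each start site, as the letters TGACGTCA, which read the same on both strands. It occurs in 588 of 32851 promoters (1.79%). Promoters were listed for 7 of the 9 members, not for Adcy6 and Adcy8, and 0 of their 9 windows hold it. The half-letters TGACG, on either strand, are in 2 of those 9, those of Prkaca and Adcy9, and in 20.8% of all. For the 59 genes of the lists, 46 had promoters, and 6 of their 79 windows (7.59%) hold the full element; they belong to 5 genes, since 2 overlapping windows of Prkar1a hold the same copy. The element is printed in capitals within 30 bases, for the genes of the lists that hold it, each with its distance before the start site.
Scg2, chr1:79440076-79440105 (minus strand), 68 bases before: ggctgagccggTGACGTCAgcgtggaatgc
Sst, chr16:23890874-23890903 (minus strand), 48 bases before: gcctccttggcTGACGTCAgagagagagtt
Dusp1, chr17:26508597-26508626 (minus strand), 143 bases before: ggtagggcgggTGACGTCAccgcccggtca
Prkar1a, chr11:109650889-109650918 (plus strand), 49 bases before one of its starts: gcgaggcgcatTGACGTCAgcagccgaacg
Creb5, chr6:53287247-53287276 (plus strand), 45 bases before: ggaatcccacgTGACGTCAccgggggggtg

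The differences of these 5 genes had both signs, and 0 passed the threshold. For MS5 versus Con the neuropeptide gene Sst differed by 0.24 (SE 0.12, exact permutation p = 0.0397, limma adjusted p = 1.00), the granin gene Scg2 by 0.20 (SE 0.19), Creb5 by 0.02 (SE 0.14), Prkar1a by -0.02 (SE 0.07) and Dusp1 by -0.21 (SE 0.10). The letters describe the windows only, and binding of Creb1 was not measured.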

How the data were processed

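The authors deposited the intensity of each spot from the Agilent scanner and a table of log2 values, background-adjusted with normexp and quantile normalized. The log2 table was used (first spot of a probe, 55681 non-control probes); the same steps on the intensity files gave it to within 5e-09. R 4.3.3 and limma 3.58.1 fitted the 3 groups in 1 model (lmFit, eBayes), with Benjamini-Hochberg adjustment over all probes. Exact permutation tests were two-sided over 252 assignments. The arrays came from separate animals on 2 slides, and their number limits the precision. Members, lists and alternatives were chosen with earlier results of these data known. Genes named were all members, in each list any gene past the threshold and the highest and lowest for MS5 versus Con, and the 2 genes most like each member; Akap11, Crebbp in MS2, Atf1, Ppargc1a, Dusp1, and genes with the response element were named after their values were seen. Alternatives were other background corrections and scalings, a filter on dim probes, slide as a block or alone, array weights and leaving out arrays. Some genes of the lists are not reported here by name. The miR arrays were not used here.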

Additional observations from a re-analysis of the deposited data

Results flagged for a closer look

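Within groups of 5 arrays, 5 of the 36 sets of member values held an array far from the others by Dixon's test, and all 5 belong to Adcy5. The 3 Adcy5 probes read the same gene in the same RNA, and the flags fall only on Con replicate 19 and MS2 replicate 5. These sets are therefore not independent, and their share cannot be set against the about 5% that chance flags among independent sets. On Con replicate 19 the 3 Adcy5 probes read 13.16, 10.91 and 12.28 (log2), against next values of 12.42, 10.05 and 11.57. On MS2 replicate 5 A_55_P2047305 read 13.30 and A_55_P2106645 read 10.99, against 12.39 and 10.12. Both arrays were among the 5 high in striatal marker genes.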

How the results depend on the processing

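Over all alternatives limma called 0 members after adjustment, with a smallest adjusted p of 0.395. At the threshold, slide 1 alone gave 1 member probe for MS5 versus Con and 2 for MS5 versus MS2, all of Adcy5. The dose trend was counted at an unadjusted p under 0.05 with no limit on size. For it slide 1 alone gave 3 (Adcy1, Adcy5 and Adcy9). Leaving out single arrays gave 0 to 1 for the dose trend, the 1 being Adcy1 without MS2 replicate 4 (slope 0.0393) or without MS5 replicate 14 (0.0513). Of the alternatives added after seeing the data, leaving out MS2 replicates 4 and 5 and MS5 replicate 9 gave 1 member probe for MS5 versus MS2 (Adcy5, 0.64), and leaving out the 5 arrays high in striatal markers gave 0. At an unadjusted p under 0.05 with no limit on size, MS5 versus Con gave 4 member probes on slide 1 and 1 without MS5 replicate 14, MS2 versus Con gave 2 on slide 2, and MS5 versus MS2 gave 1 with slide as a block (Prkaca), 5 on slide 1, 2 on slide 2, 1 with array weights, 2 without the 3 arrays and 2 without the 5 (both of Creb1). For the pathway lists, MS5 versus Con gave 1 gene on slide 1, and MS5 versus MS2 gave 2 on slide 1, 2 on slide 2, 1 with array weights and 2 without the 3 arrays. Leaving out single arrays gave 0 to 1 for MS2 versus Con (Egr1, -0.78, without MS2 replicate 5) and 0 to 1 for MS5 versus Con (Penk, without Con replicate 19). For Egr1 the adjusted p there was 0.742 by limma. With all arrays its MS2 difference was -0.50 (SE 0.34). Without MS2 replicate 4, its lowest array at 10.06, the Egr1 difference was -0.19 (SE 0.27). The cause of these changes between alternatives was not tested. Of 882 differences and slopes of single members, 858 stayed within 1 SD and 121 had the other sign, the largest at a main value of 0.24. The paper states that treated pups went back to the home cage with untreated littermates, so litters may be shared between groups. The labels do not name the litter, and the groups compared share no replicate numbers. A paired analysis or a litter block was therefore not possible.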
